A study of Homo sapiens with 12 samples.

Results

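The genes described here are 47 genes of DNA replication and S phase, taken by name from a list of origin licensing, helicase, clamp, polymerase, nucleotide supply and chromatin assembly factors. The cells were SH-SY5Y, a line from a human neuroblastoma that serves as a neuron-like model, measured on 12 Affymetrix 3′ expression arrays, and the genes are 47 of the 11767 genes tested. The labels give 4 groups of 3 arrays: fibrillar amyloid-β (Aβ, the plaque peptide of Alzheimer's disease) incubated for 24 h, control 24 h, oligomeric Aβ incubated for 6 h, and control 6 h. Peptide form and incubation time are tied to each other, and the labels leave unstated whether the peptide aged or the cells were exposed for those hours, what the controls received and whether replicates were separate cultures. The p-values therefore measure only the spread between these arrays. Each gene was read from the brightest of its probe sets annotated to a single symbol, and all 47 genes had one above the filter on low values, a mean log2 signal over the 12 arrays at or above 3.79. Values are log2 MAS5 signals, changes are differences of group means on that scale, and a change was called where its Benjamini-Hochberg adjusted p over all 11767 genes, from a limma model of the 4 groups, was under 0.05.

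Replication begins with licensing, in which the origin recognition complex, CDC6 and CDT1 load the MCM2 to MCM7 ring onto DNA in G1 phase. In S phase, kinases, CDC45 and the GINS complex turn that ring into the moving helicase, and the clamp PCNA tethers the polymerases behind it. Most genes of this machinery are transcribed from late G1 under E2F transcription factors, and their RNA falls when cells leave the cycle. In bulk RNA, fewer cells in S phase and less RNA of these genes per cell cannot be told apart.

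The cells carried neuroblastoma markers: 8 of 9 measured noradrenergic markers, among them PHOX2A, GATA3 and DBH, lay above the filter, and TH, tyrosine hydroxylase, lay below it. The 4 glial markers lay below the filter, 2 of 4 measured blood and endothelial markers (HBB and PECAM1) and 1 of 5 epithelial markers (EPCAM) lay above it, and the 5 fibroblast markers all lay above it. The log2 of the summed fibroblast marker signal ran from 11.64 to 11.89 in fibrillar, 11.66 to 12.03 in control 24 h, 11.59 to 11.89 in oligomeric and 11.52 to 11.80 in control 6 h arrays. The summed signal of the 8 neuroblastoma markers ran from 13.95 to 14.01 in fibrillar, 13.94 to 14.10 in control 24 h, 14.03 to 14.07 in oligomeric and 14.01 to 14.05 in control 6 h arrays. Of the markers, PHOX2A and DBH were lower and STMN2 higher in both comparisons of 24 h with 6 h arrays, and the fibroblast marker DCN was higher in the controls; their part in the results below was not tested. Array medians ran from 3.89 to 4.12 in log2 signal. Precision is set by the number of arrays, with a standard error of 0.13 in the median gene.

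The 24 h and 6 h arrays also differed in measures of the RNA or the hybridization. The log2 signal of the 18S ribosomal RNA probe set at its 5′ end lay between 11.4 and 11.9 on the 6 arrays of 24 h and between 9.31 and 10.7 on the 6 arrays of 6 h (exact permutation, two-sided p = 0.00216, which is the lowest p possible here, adjusted p = 0.0173 over 8 comparisons of array measures). The 3′ less 5′ difference of GAPDH averaged 0.573 at 24 h and 0.761 at 6 h (exact permutation p = 0.0173, adjusted p = 0.0693). That of ACTB averaged 2.65 at 24 h and 2.86 at 6 h (exact permutation p = 0.136, adjusted p = 0.225). The 18S signal separated the hours in both comparisons of 24 h with 6 h arrays below. The GAPDH difference separated them in the controls alone, at 0.47 to 0.52 against 0.77 to 0.83. Fibrillar replicate 1, at 0.81, lay above all oligomeric arrays. The part of these measures in the results below was not tested.

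No change of the 47 genes with Aβ passed the test at either time. In oligomeric against control 6 h arrays 0 of 47 passed, where the share of all genes called was 0%. Their median change was −0.0018, with 23 genes higher and 24 lower in mean. An unadjusted p under 0.05 was met by 0 of 47, and by 327 of all 11767 genes. In fibrillar against control 24 h arrays 0 of 47 passed, where 1.19% of all genes were called, 94 higher and 46 lower. The median change was 0.01, with 24 genes higher and 23 lower. An unadjusted p under 0.05 was met by 1 gene with a higher mean and 3 with a lower one. Of all 11767 genes, 954 with a higher mean and 714 with a lower one met it. The plot of all 47 changes against control gives each with its standard error. The median standard error was 0.11 over the 47 genes and 0.13 over all genes.

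**Figure D1:**
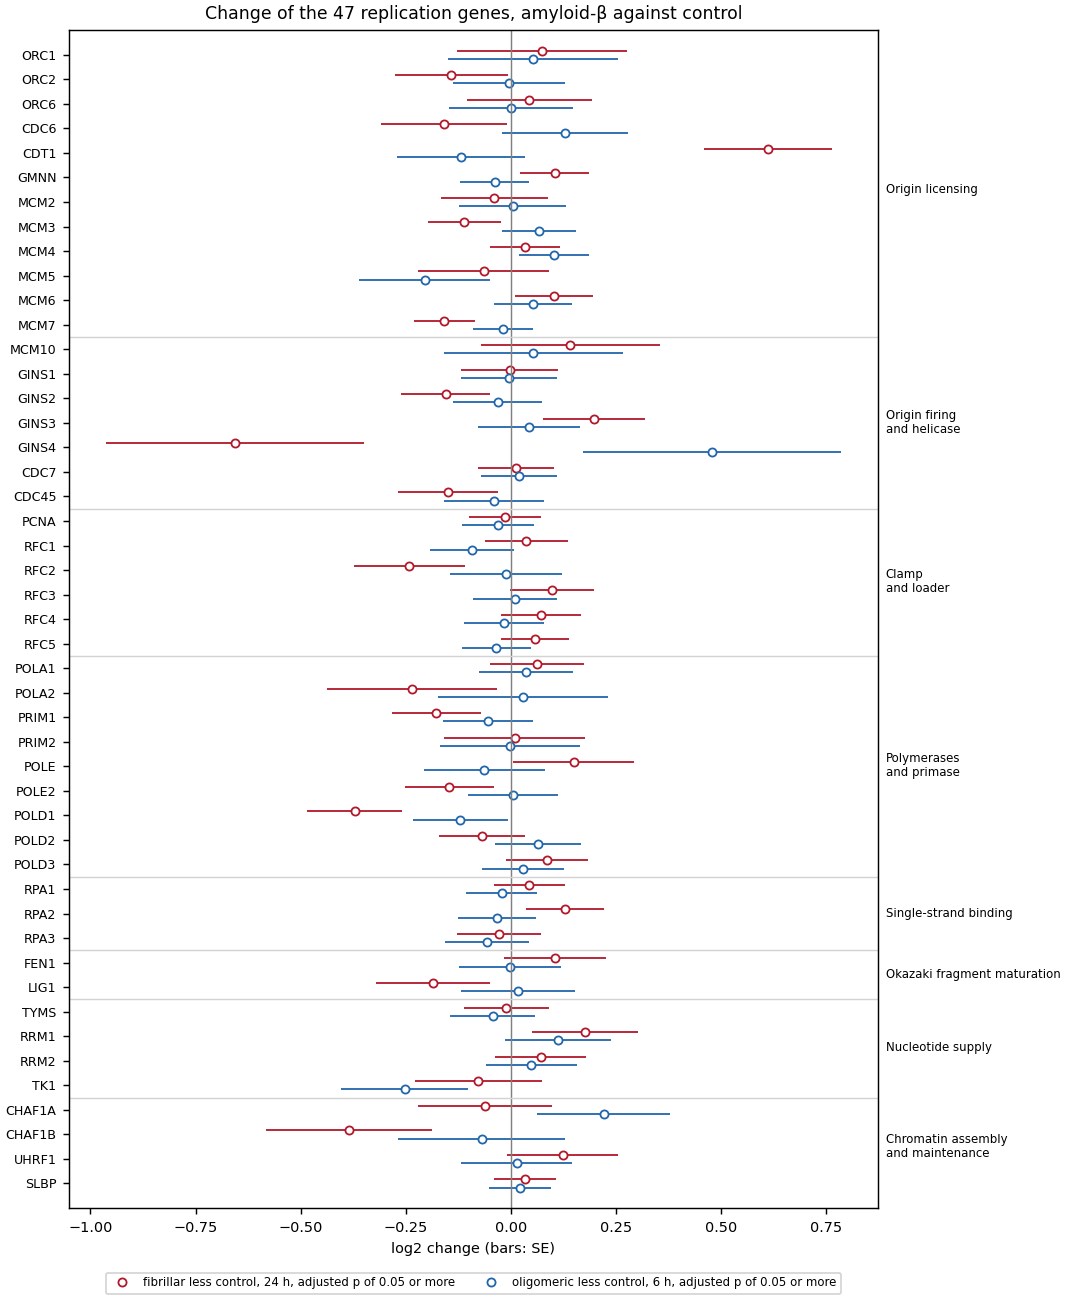
Change of each of the 47 replication genes (rows, by role) in fibrillar less control 24 h arrays (red) and oligomeric less control 6 h arrays (blue), in log2 units with bars of 1 standard error. All points are open because none passed the adjusted p threshold, and CDT1 at 0.61 and GINS4 at −0.66 lie farthest from 0 in the fibrillar comparison.

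The gene nearest to a call with fibrils was CDT1, the loader that brings the MCM ring to the origin complex. Its log2 signal was 8.45, 8.80 and 8.51 in fibrillar arrays, 7.73, 8.15 and 8.04 in control 24 h arrays, 8.01, 8.45 and 7.73 in oligomeric arrays and 8.09, 8.21 and 8.24 in control 6 h arrays. All 3 fibrillar arrays lay above all 3 of their controls, while the oligomeric arrays lay on both sides of theirs. The change with fibrils was 0.61 (SE 0.15, limma adjusted p = 0.0621), and that with oligomers was −0.12 (SE 0.15). It passed in 3 of 10 alternative settings. These were centring each array on its median (adjusted p = 0.0288), array quality weights (0.0391) and the replicate number as a block (0.0257). Over the 10 settings the change ran from 0.31 to 0.69, with limma adjusted p up to 0.532. With each of the 6 arrays of the comparison left out in turn it passed in 0 fits (adjusted p from 0.0725 to 0.268). In the fits without oligomeric replicate 2 or 3, arrays outside the comparison, 1 of the 47 genes was also called higher with fibrils. Those fits called 0.79% and 1.34% of all genes in either direction. The probe set carries the suffix that marks possible cross-hybridization, and the other CDT1 probe set, with a mean signal of 4.90, gave 0.01 for the same comparison.

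Next came POLD1, the catalytic subunit of DNA polymerase δ, which copies mainly the lagging strand. It read 6.52, 6.58 and 6.48 in fibrillar, 6.86, 6.97 and 6.86 in control 24 h, 7.11, 6.94 and 7.19 in oligomeric and 7.32, 7.12 and 7.16 in control 6 h arrays. The fibrillar arrays were the lowest of all 12, with no overlap with any other group. The change with fibrils was −0.37 (SE 0.11, adjusted p = 0.14) and that with oligomers −0.12 (SE 0.11), so neither passed. The remaining genes with the smallest p in the fibril comparison, MCM7 at −0.16 (SE 0.07), GINS4 at −0.66 (SE 0.31) and CHAF1B at −0.39 (SE 0.20), had adjusted p of 0.334 to 0.408. The GINS4 change was −0.23 without control 24 h replicate 2, and it ran to −0.91 without replicate 1 of that group. The CHAF1B change with fibrils ran from −0.54 to −0.25 as single arrays of the comparison were left out. In the oligomer comparison they were TK1 at −0.25 (SE 0.15), GINS4 at 0.48 (SE 0.31), CHAF1A at 0.22 (SE 0.16), MCM5 at −0.20 (SE 0.16) and MCM4 at 0.10 (SE 0.08), with adjusted p of 0.999987 for each.

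The fibrillar and oligomeric responses were also compared with each other, as the fibrillar change less the oligomeric one. None of the 47 genes passed, where 0.0425% of all genes were called (5 genes). CDT1 had a difference of 0.73 (SE 0.21, adjusted p = 0.293) and GINS4 one of −1.13 (SE 0.43, adjusted p = 0.443), which was −0.71 without control 24 h replicate 2. POLD1 at −0.25 (SE 0.16), MCM3 at −0.18 (SE 0.12) and MCM7 at −0.14 (SE 0.10) followed, with adjusted p of 0.716 to 0.758. The median over the 47 genes was 0.02. At an unadjusted p under 0.05 there was 1 gene with a positive and 1 with a negative difference, against 594 and 410 of all 11767 genes.

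The calls in these genes lay between the 24 h and the 6 h arrays. In control 24 h against control 6 h arrays 10 of 47 genes (21.3%) were lower, where 7.92% of all genes were called lower, and 1 was higher, where 3.76% were called higher. In fibrillar 24 h against oligomeric 6 h arrays, which share no array with the first comparison but also differ in the form of the peptide, 10 of 47 were lower, where 8.62% of all genes were, and 1 was higher, where 6.54% were. The same 6 genes, ORC1, MCM2, MCM3, MCM5, MCM7 and RRM2, were lower in both (12.8% of the 47, where 4.37% of all genes were lower in both), and 0 were higher in both, where 1.68% were. Centring each array on its median, which moved the median change of all genes in the control comparison to −0.15, raised the count of lower genes in the controls to 20 (42.6%) and left 1 higher. Over all genes the share called lower there became 15%. It took the share of calls that were higher over all genes to 7.34%, against 32.2% without centring.

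Most genes that were not called also had lower means. The median of the 47 changes was −0.21 in the controls, with 43 genes lower in mean, and −0.20 in the Aβ arrays, with 42 lower, against a median of −0.02 over all genes tested in each comparison, of which 52.6% and 52.2% were lower. These counts hold for the brightest probe set of each gene. Of the 35 further probe sets of these genes above the filter, 22 were lower in the controls and 27 in the Aβ arrays. For 9 of the 47 genes (19.1%) all 6 arrays of 24 h lay below all 6 arrays of 6 h, where 7.35% of all genes did so, and for 0 they lay above, where 4.11% did. These 9 were the 6 named above with RFC5, POLA1 and RPA3. The difference between the 2 comparisons is by construction that between the fibrillar and oligomeric responses, for which 0 of 47 passed, so no gene was shown to move more in one of them.

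**Figure D2:**
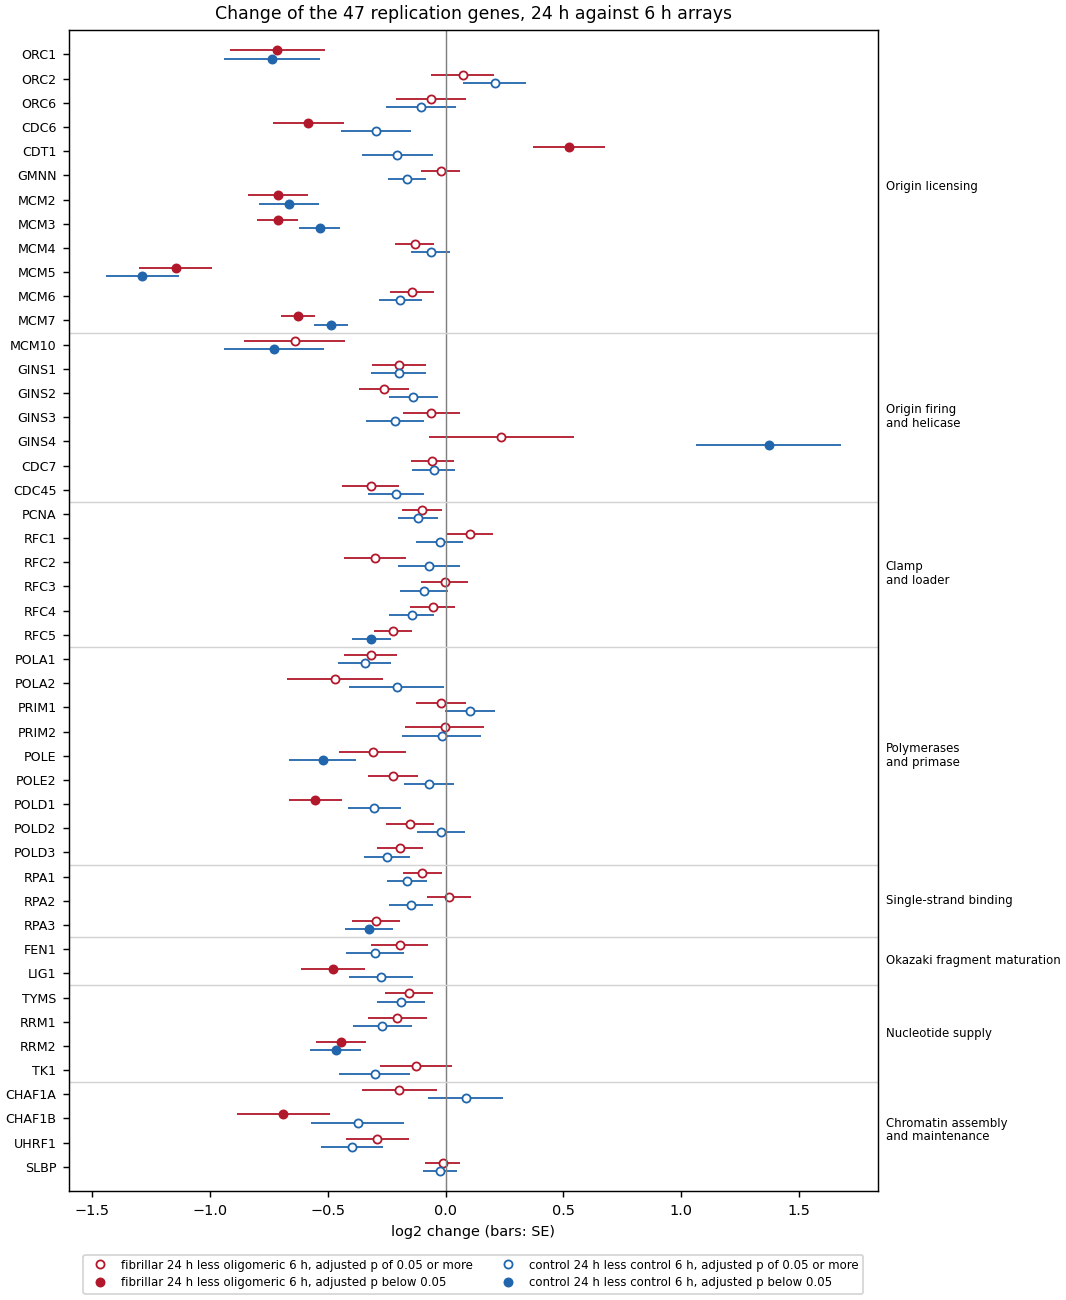
Change of each of the 47 replication genes (rows, by role) in control 24 h less control 6 h arrays and in fibrillar 24 h less oligomeric 6 h arrays, in log2 units with bars of 1 standard error; filled points passed an adjusted p of 0.05. Most points lie left of 0, MCM5 lies farthest left in both comparisons at −1.29 and −1.15, and GINS4 lies far right in the controls alone at 1.37.

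The groups were not even inside. Taking each gene's deviation from its own mean over the 12 arrays, the median over the 47 genes was −0.12, 0.04 and −0.23 in fibrillar replicates 1, 2 and 3, and −0.17, 0.10 and −0.22 in those of control 24 h. It was 0.03, 0.15 and 0.07 in oligomeric and 0.07, 0.18 and 0.06 in control 6 h arrays, while over all genes it stayed between −0.01 and 0.04 on every array. Replicate 2 of both 24 h groups therefore stood close to the 6 h arrays and apart from replicates 1 and 3. It was the highest of its group for 37 of 47 genes in fibrillar, 40 in control 24 h, 30 in oligomeric and 28 in control 6 h arrays, where it was the highest for 34.4%, 33.2%, 29.0% and 34.7% of all genes.

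**Figure D3:**
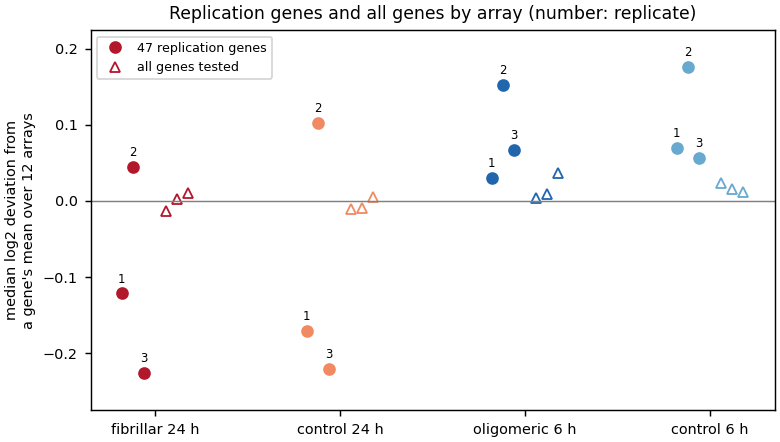
Median deviation of the 47 replication genes (filled) and of all genes tested (open triangles) from each gene's mean over the 12 arrays, in log2 units, for every array by group, with replicate numbers. Replicates 1 and 3 of the 24 h groups lie between −0.12 and −0.23, replicate 2 of those groups at 0.04 and 0.10, and all 6 h arrays between 0.03 and 0.18.

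Counts of lower genes moved with these arrays. Without control 24 h replicate 2 the controls gave 14 lower genes (29.8%, where 6.33% of all genes were lower in that fit), and without fibrillar replicate 2 the Aβ arrays gave 14 (29.8%, where 7.75% were). In the controls the count was 5 without control 24 h replicate 1 (5.02% of all genes), 4 without its replicate 3 (4.73%), 6 without control 6 h replicate 1 (5.3%), 5 without its replicate 2 (4.44%) and 7 without its replicate 3 (6.08%). In the Aβ arrays it was 5 without fibrillar replicate 3 (5.57% of all genes), 6 without oligomeric replicate 2 (5.34%) and 9 to 10 without any other array of those groups except fibrillar replicate 2. With all arrays those shares over all genes were 7.92% in the controls and 8.62% in the Aβ arrays, so they moved with the arrays left out as well. For those 9 to 10 genes they were 6.65% without fibrillar replicate 1, 9.05% without oligomeric replicate 1 and 5.56% without its replicate 3. MCM2, MCM3, MCM5 and MCM7 passed with each of the 6 arrays of a comparison left out in turn, in both comparisons.

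Of the origin licensing genes 5 of 12 were lower in the controls and 6 of 12 in the Aβ arrays, with 1 higher there. For all genes the shares called lower were 7.92% and 8.62%, and 6.54% were higher in the Aβ arrays. Among them were 4 of the 6 subunit genes of the MCM ring, lower in both comparisons, where 4.37% of all genes were. The ring's genes had a median change over the 6 of −0.51 in the controls and −0.67 in the Aβ arrays.

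MCM5 read 7.20, 7.91 and 7.65 in fibrillar arrays and 7.48, 7.87 and 7.60 in control 24 h arrays. On the 6 h arrays it read 8.57, 9.0 and 8.63 with oligomers and 8.96, 9.02 and 8.83 in controls. Every 24 h array lay below every 6 h array. The change was −1.29 (SE 0.16, adjusted p = 0.000101) in the controls, a 2.44-fold lower signal, and −1.15 (SE 0.16, adjusted p = 0.000311) in the Aβ arrays, 2.21-fold lower. A dimmer MCM5 probe set gave −0.95 and −0.92.

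MCM2 read 8.76, 9.26 and 8.91 in fibrillar and 8.96, 9.25 and 8.84 in control 24 h arrays, against 9.48, 9.89 and 9.70 in oligomeric and 9.66, 9.73 and 9.66 in control 6 h arrays. The 24 h and 6 h arrays did not overlap, and replicate 2 was the highest of both 24 h groups. The change was −0.67 (SE 0.13, adjusted p = 0.00315) in the controls and −0.71 (SE 0.13, adjusted p = 0.00178) in the Aβ arrays.

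MCM3 read 9.55, 9.37 and 9.42 in fibrillar and 9.53, 9.77 and 9.37 in control 24 h arrays, against 10.11, 10.23 and 10.14 in oligomeric and 10.10, 10.07 and 10.11 in control 6 h arrays. The 6 h arrays lay within a narrow band above all others. The change was −0.54 (SE 0.09, adjusted p = 0.00117) in the controls and −0.71 (SE 0.09, adjusted p = 0.000169) in the Aβ arrays.

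MCM7 read 9.61, 9.57 and 9.50 in fibrillar and 9.71, 9.80 and 9.65 in control 24 h arrays, against 10.07, 10.27 and 10.22 in oligomeric and 10.20, 10.28 and 10.14 in control 6 h arrays. Again the 24 h arrays were all lower. The change was −0.49 (SE 0.07, adjusted p = 0.000509) in the controls and −0.63 (SE 0.07, adjusted p = 8.28e-05) in the Aβ arrays, and its other probe set gave −0.35 and −0.63.

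The other 2 subunit genes of the ring did not pass. MCM6 gave −0.19 (SE 0.09, adjusted p = 0.197) in the controls and −0.14 (SE 0.09, adjusted p = 0.332) in the Aβ arrays, and its arrays ran from 10.62 to 11.04 at 24 h and from 10.86 to 11.06 at 6 h. MCM4 gave −0.06 and −0.13 (SE 0.08 for both), with arrays from 9.27 to 9.60 at 24 h and 9.40 to 9.65 at 6 h. The 3 further MCM4 probe sets gave −0.14, −0.37 and 0.50 in the controls and −0.66, −0.35 and −0.09 in the Aβ arrays, so they differed in sign in the first. The −0.66 passed over all probe sets (adjusted p = 0.0113).

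**Figure D4:**
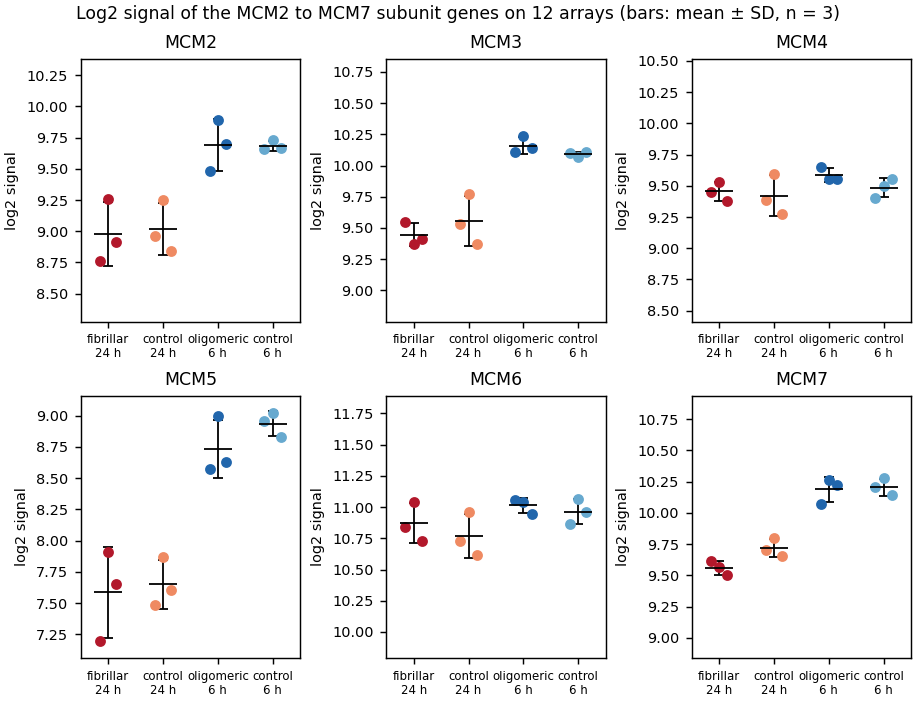
Log2 signal of the 6 MCM ring genes on each of the 12 arrays (points) by group, with the mean ± SD of 3 arrays (bars), on axes that span the same range in every panel. MCM2, MCM3, MCM5 and MCM7 have both 24 h groups wholly below both 6 h groups, and MCM4 and MCM6 do not.

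The promoters of 4 ring genes are shown because E2F sites are the known regulatory feature of this family. Windows from 250 bases before to 50 bases after the annotated start, from RefSeq on GRCh38.p14, were matched by symbol for 41 of the 47 genes. MCM4 and MCM5, the ring gene with the largest change, had no window, which left MCM2, MCM3, MCM6 and MCM7. They were searched on both strands for an E2F-type site (TTTCCCGC, TTTCGCGC, TTTGGCGC or TTTGCCGC). The 4 promoters below are 5′ to 3′ on the gene's strand, with E2F-type matches on either strand in capitals: MCM2 at chr3:127598161-127598460 on the plus strand, MCM3 at chr6:52284693-52284992, MCM6 at chr2:135876394-135876693 and MCM7 at chr7:100100480-100100779, all 3 on the minus strand.
MCM2: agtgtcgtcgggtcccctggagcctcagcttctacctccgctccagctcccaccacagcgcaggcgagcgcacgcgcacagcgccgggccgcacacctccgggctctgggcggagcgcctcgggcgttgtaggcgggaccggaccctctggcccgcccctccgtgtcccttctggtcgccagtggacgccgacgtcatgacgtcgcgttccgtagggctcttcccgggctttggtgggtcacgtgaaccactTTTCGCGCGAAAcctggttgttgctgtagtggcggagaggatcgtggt
MCM3: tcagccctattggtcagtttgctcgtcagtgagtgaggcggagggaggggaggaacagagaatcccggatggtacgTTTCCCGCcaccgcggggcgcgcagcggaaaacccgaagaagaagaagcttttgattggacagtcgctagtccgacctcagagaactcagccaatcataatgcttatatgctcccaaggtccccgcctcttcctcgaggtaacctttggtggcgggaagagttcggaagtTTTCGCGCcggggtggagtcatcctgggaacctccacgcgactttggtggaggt
MCM6: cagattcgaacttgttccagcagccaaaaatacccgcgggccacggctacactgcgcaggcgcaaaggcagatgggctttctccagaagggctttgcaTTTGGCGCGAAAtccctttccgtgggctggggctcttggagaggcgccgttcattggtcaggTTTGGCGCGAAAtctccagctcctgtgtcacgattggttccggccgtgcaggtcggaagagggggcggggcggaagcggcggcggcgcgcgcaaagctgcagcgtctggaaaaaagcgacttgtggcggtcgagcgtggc
MCM7: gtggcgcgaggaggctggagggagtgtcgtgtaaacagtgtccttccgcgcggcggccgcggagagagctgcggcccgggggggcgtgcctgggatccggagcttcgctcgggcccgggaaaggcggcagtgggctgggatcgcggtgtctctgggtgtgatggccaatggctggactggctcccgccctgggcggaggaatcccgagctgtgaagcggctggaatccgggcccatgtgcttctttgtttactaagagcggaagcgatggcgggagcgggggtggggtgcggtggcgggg

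MCM6 holds 4 matches, which form 2 overlapping pairs on opposite strands, whose first bases lie 152 and 148, and 90 and 86, bases before the start. MCM3 holds 2, starting 174 and 4 bases before the start, and MCM2 has an overlapping pair just after it. MCM7 has 0 matches in this window. MCM2, MCM3 and MCM7 were lower in both comparisons and MCM6 did not pass, and any link of the matches with the changes was not tested.

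Across the 47 genes the E2F-type site lay in 16 of 41 promoters (39.0%), against 5.22% of the 9685 promoters of tested genes and 3.27% of all 27305 promoters of the same length. Of the 6 genes lower in both comparisons 5 had a promoter in the table and 2 of these (40%) held the site, against 14 of 36 (38.9%) for the other genes. The CCAAT box (CCAAT) lay in 23 of 41 (56.1%), against 36.7% of promoters of tested genes. The cell cycle homology region (TTTGAA or TTCGAA), found mainly in genes of mitosis, lay in 2 of 41 (4.88%), against 11.5%. A match describes these letters and not binding.

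Of the factors that load the ring, ORC1, the largest subunit of the origin recognition complex, was lower in both comparisons. It read 5.35, 5.56 and 5.25 in fibrillar and 5.52, 5.45 and 4.97 in control 24 h arrays, against 6.16, 6.38 and 5.76 in oligomeric and 6.06, 6.14 and 5.95 in control 6 h arrays. The 24 h arrays all lay below the 6 h arrays, with the spread widest in control 24 h and oligomeric arrays. The change was −0.74 (SE 0.20, adjusted p = 0.0269) in the controls and −0.71 (SE 0.20, adjusted p = 0.0262) in the Aβ arrays. The call in the controls was lost without control 24 h replicate 3 (adjusted p = 0.125), control 6 h replicate 1 (0.0719) or 2 (0.0971), and with no filter (0.0552). That in the Aβ arrays was lost without fibrillar replicate 1 (0.0669) or 3 (0.0944), oligomeric replicate 1 (0.0594) or 2 (0.124), and with no filter (0.0525).

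CDC6, the ATPase that joins ORC to recruit the ring, was lower in the Aβ arrays. It read 7.57, 7.89 and 7.31 in fibrillar and 7.68, 7.90 and 7.67 in control 24 h arrays, against 8.12, 8.44 and 7.97 in oligomeric and 7.89, 8.28 and 7.97 in control 6 h arrays. The fibrillar and oligomeric arrays were apart, and the control groups overlapped. The change was −0.58 (SE 0.15, adjusted p = 0.0159) in the Aβ arrays and −0.30 (SE 0.15, adjusted p = 0.221) in the controls, and its other probe set gave −0.39 and −0.40 for these. The CDC6 call was lost without fibrillar replicate 3 (0.0869), without oligomeric replicate 2 (0.087), with the mean of both probe sets (0.062) and with a constant prior variance (0.0551).

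CDT1, with the array values given above, was the single gene higher in fibrillar 24 h than oligomeric 6 h arrays, by 0.52 (SE 0.15, adjusted p = 0.0285), and it gave −0.21 (SE 0.15) in the controls. This CDT1 call did not hold without fibrillar replicate 2 (adjusted p = 0.0997) or 3 (0.0598), without oligomeric replicate 1 (0.0637) or 3 (0.136), with array weights (0.0778), with a constant prior variance (0.0837) and with the 2 groups alone (0.0509). With the mean of its probe sets the change was 0.22 (adjusted p = 0.523). GMNN, geminin, which binds CDT1 to block relicensing, gave −0.16 in the controls and −0.02 in the Aβ arrays (SE 0.08). ORC2 gave 0.21 and 0.07 (SE 0.13) and ORC6 −0.11 and −0.06 (SE 0.15) in the same order, and none of these passed.

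Of the 7 genes that fire origins and build the helicase, 1 was lower and 1 higher in the controls and 0 passed in the Aβ arrays. All genes tested had 7.92% called lower and 3.76% higher in the controls, and 8.62% and 6.54% in the Aβ arrays. MCM10, which helps the assembled helicase start unwinding, was lower in the controls, at −0.73 (SE 0.21, adjusted p = 0.0363), and it gave −0.64 (SE 0.21, adjusted p = 0.0522) in the Aβ arrays. The group means were 8.31 ± 0.42 in fibrillar, 8.17 ± 0.54 in control 24 h, 8.95 ± 0.11 in oligomeric and 8.90 ± 0.16 in control 6 h arrays (SD, n = 3). Control 24 h replicate 2 lay within the range of the 6 h arrays, and the spread of both 24 h groups was wide. The other MCM10 probe sets, with mean signals of 8.55 and 8.32 against 8.58, gave smaller changes. These were −0.15 and −0.36 in the controls and −0.17 and −0.44 in the Aβ arrays. The call was lost without control 24 h replicate 1 (0.141) or 3 (0.166), without control 6 h replicate 1 (0.0521), 2 (0.124) or 3 (0.0864), with the mean of its 3 probe sets (0.103) and with a constant prior variance (0.114).

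GINS4, a subunit of the GINS complex that binds CDC45 in the helicase, was the single gene higher in control 24 h than control 6 h arrays. It read 5.65, 5.61 and 5.46 in fibrillar and 5.71, 7.08 and 5.89 in control 24 h arrays, against 5.51, 5.51 and 4.99 in oligomeric and 4.61, 5.33 and 4.63 in control 6 h arrays. Control 24 h replicate 2 stood apart above every other array. The change was 1.37 (SE 0.31, adjusted p = 0.00848) in the controls and 0.24 (SE 0.31, adjusted p = 0.662) in the Aβ arrays. Its 3 other probe sets gave 1.03, −0.85 and 0.17 in the controls, and with the mean of all 4 the change was 0.43 (adjusted p = 0.442). The other GINS subunit genes, GINS1, GINS2 and GINS3, gave −0.20, −0.14 and −0.21 in the controls and −0.20, −0.26 and −0.06 in the Aβ arrays. A dimmer GINS3 probe set disagreed in size, with −0.39 in the controls and −0.78 in the Aβ arrays (adjusted p = 0.01 over all probe sets for the second). CDC45 gave −0.21 and −0.32 (SE 0.12) and CDC7, the kinase that phosphorylates the MCM ring, −0.05 and −0.06 (SE 0.09), and these did not pass.

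Of the 6 clamp and loader genes 1 was called lower in the controls, where 7.92% of all genes were. In the Aβ arrays 0 passed, where 8.62% of all genes were called lower and 6.54% higher. PCNA, the sliding clamp, read 11.25, 11.35 and 11.17 in fibrillar and 11.18, 11.49 and 11.14 in control 24 h arrays, against 11.34, 11.44 and 11.30 in oligomeric and 11.33, 11.41 and 11.43 in control 6 h arrays. Its changes of −0.12 (SE 0.08, adjusted p = 0.412) in the controls and −0.10 (SE 0.08, adjusted p = 0.471) in the Aβ arrays did not pass, and its groups overlapped.

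RFC5, of the 5 loader subunit genes, was the one that passed. It read 9.15, 9.01 and 8.94 in fibrillar and 8.91, 9.12 and 8.89 in control 24 h arrays, against 9.26, 9.27 and 9.24 in oligomeric and 9.37, 9.21 and 9.30 in control 6 h arrays. The 24 h arrays were all lower, by a narrow margin. The change was −0.32 (SE 0.08, adjusted p = 0.0192) in the controls and −0.22 (SE 0.08, adjusted p = 0.0747) in the Aβ arrays. Its 2 other probe sets gave −0.02 and 0.42 in the controls, so that the mean of all 3 was 0.03 (adjusted p = 0.891). The call was also lost without control 24 h replicate 1 (0.0819) or 3 (0.0898), without control 6 h replicate 1 (0.0787) or 3 (0.0505), and with a constant prior variance (0.0522). RFC1 to RFC4 gave changes from −0.14 to −0.03 in the controls and from −0.30 to 0.10 in the Aβ arrays. The other RFC3 probe sets disagreed, with 0.29 and −0.28 in the controls and 0.02 and 0.53 in the Aβ arrays.

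Polymerase and primase genes were lower in mean for 8 of 9 in the controls and 9 of 9 in the Aβ arrays, with 1 passing as lower in each. Among all genes 52.6% and 52.2% were lower in mean, and 7.92% and 8.62% were called lower. POLE, the catalytic subunit of the leading-strand polymerase ε, passed in the controls. It read 6.69, 6.90 and 6.45 in fibrillar and 6.59, 6.41 and 6.59 in control 24 h arrays, against 7.08, 7.12 and 6.77 in oligomeric and 6.87, 7.16 and 7.13 in control 6 h arrays. The control groups did not overlap and the Aβ groups did. The change was −0.52 (SE 0.14, adjusted p = 0.0268) in the controls and −0.31 (SE 0.14, adjusted p = 0.16) in the Aβ arrays. The call was lost without control 24 h replicate 1 (0.0573), 2 (0.0865) or 3 (0.06), and without control 6 h replicate 2 (0.107) or 3 (0.0848).

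POLD1, with the array values given above, was lower in the Aβ arrays, at −0.55 (SE 0.11, adjusted p = 0.00422) and gave −0.30 (SE 0.11, adjusted p = 0.0961) in the controls. It passed with each array of the comparison left out. POLA1, the catalytic subunit of polymerase α, had all 24 h arrays, from 7.27 to 7.55, below all 6 h arrays, from 7.57 to 7.87, yet its changes of −0.34 (SE 0.11, adjusted p = 0.0567) and −0.32 (SE 0.11, adjusted p = 0.0647) did not pass. The accessory subunit genes POLA2, POLE2, POLD2 and POLD3 gave −0.25 to −0.02 in the controls and −0.47 to −0.15 in the Aβ arrays. The primase genes PRIM1 and PRIM2 gave 0.10 and −0.02 in the controls and −0.02 and −0.00 in the Aβ arrays.

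RPA3, the smallest subunit of the single-strand binding protein RPA, was lower in the controls, at −0.33 (SE 0.10, adjusted p = 0.0456), and it gave −0.30 (SE 0.10, adjusted p = 0.0566) in the Aβ arrays. Its 24 h arrays ran from 10.38 to 10.63 and its 6 h arrays from 10.64 to 11.02, without overlap. The call was lost without control 24 h replicate 1 (0.147) or 3 (0.136), without control 6 h replicate 1 (0.13) or 2 (0.176), with no filter (0.0708), with the mean of probe sets (0.0566) and with a constant prior variance (0.123). RPA1 gave −0.16 and −0.10 (SE 0.08) and RPA2 −0.15 and 0.01 (SE 0.09), and neither passed.

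In Okazaki fragment maturation, LIG1, the ligase that seals the fragments, was lower in the Aβ arrays. It read 7.60, 7.41 and 7.22 in fibrillar and 7.58, 7.80 and 7.41 in control 24 h arrays, against 7.67, 7.97 and 8.02 in oligomeric and 7.89, 8.04 and 7.67 in control 6 h arrays. The Aβ groups were apart and the control groups overlapped. The change was −0.48 (SE 0.14, adjusted p = 0.0262) in the Aβ arrays and −0.28 (SE 0.14, adjusted p = 0.21) in the controls. The call was lost without fibrillar replicate 2 (0.0517) or 3 (0.122), without oligomeric replicate 2 (0.0948) or 3 (0.101), and with a constant prior variance (0.0646). FEN1, the nuclease that trims the flaps, gave −0.30 and −0.19 (SE 0.12) in the controls and the Aβ arrays, without a call.

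Among the 4 nucleotide supply genes RRM2, the regulated small subunit of ribonucleotide reductase, was lower in both comparisons. It read 11.03, 11.27 and 10.90 in fibrillar and 10.87, 11.26 and 10.85 in control 24 h arrays, against 11.46, 11.56 and 11.51 in oligomeric and 11.37, 11.60 and 11.41 in control 6 h arrays. Replicate 2 was the highest of each group, and the 24 h arrays all lay below the 6 h arrays. The change was −0.47 (SE 0.11, adjusted p = 0.0107) in the controls and −0.44 (SE 0.11, adjusted p = 0.0116) in the Aβ arrays, and its other probe set gave −0.29 and −0.31. The call in the controls was lost without control 24 h replicate 1 (0.0535) or 3 (0.0597), without control 6 h replicate 2 (0.0612), with the mean of probe sets (0.0581) and with a constant prior variance (0.0547). The call in the Aβ arrays was lost without fibrillar replicate 3 (0.0675) and with the last 2 settings (0.0562 and 0.0554).

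TYMS, thymidylate synthase, read 11.95, 12.15 and 11.83 in fibrillar and 11.84, 12.16 and 11.96 in control 24 h arrays, against 11.96, 12.28 and 12.16 in oligomeric and 12.14, 12.31 and 12.08 in control 6 h arrays. The groups overlapped, and its changes of −0.19 (SE 0.10, adjusted p = 0.251) in the controls and −0.16 (SE 0.10, adjusted p = 0.329) in the Aβ arrays did not pass. RRM1, the large reductase subunit, gave −0.27 and −0.21 (SE 0.13) and the salvage enzyme TK1 gave −0.30 and −0.13 (SE 0.15). Probe sets disagreed in sign in the controls for 2 of these genes. The other RRM1 probe set, with a mean signal of 8.12, gave 0.33 in the controls and 0.06 in the Aβ arrays. The other TYMS probe set above the filter gave 0.05 and −0.19.

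**Figure D5:**
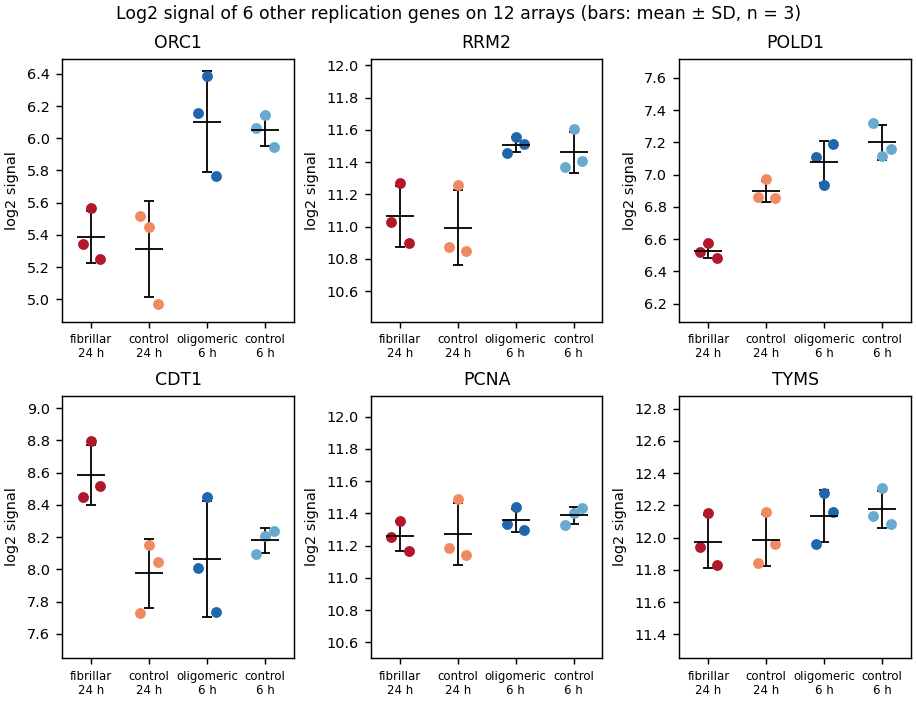
Log2 signal of ORC1, RRM2, POLD1, CDT1, PCNA and TYMS on each of the 12 arrays (points) by group, with the mean ± SD of 3 arrays (bars), on axes that span the same range in every panel. ORC1 and RRM2 have both 24 h groups below both 6 h groups, POLD1 is lowest and CDT1 highest in the fibrillar arrays, and PCNA and TYMS overlap between groups.

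Of the chromatin genes, CHAF1B, a subunit of the chromatin assembly factor that places histones behind the fork, was lower in the Aβ arrays. It read 5.14, 5.63 and 5.34 in fibrillar and 5.79, 6.02 and 5.45 in control 24 h arrays, against 5.84, 6.08 and 6.26 in oligomeric and 6.00, 6.34 and 6.04 in control 6 h arrays. The fibrillar arrays lay below both 6 h groups, and control 24 h replicate 2 overlapped them. The change was −0.69 (SE 0.20, adjusted p = 0.0276) in the Aβ arrays and −0.37 (SE 0.20, adjusted p = 0.245) in the controls. The call was lost without fibrillar replicate 1 (0.102) or 3 (0.079), without oligomeric replicate 2 (0.078) or 3 (0.105), with no filter (0.0528) and with the 2 groups alone (0.0519).

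UHRF1, which recruits the maintenance methyltransferase to new DNA, read 10.12, 10.46 and 10.20 in fibrillar and 10.08, 10.47 and 9.85 in control 24 h arrays, against 10.77, 10.52 and 10.36 in oligomeric and 10.47, 10.52 and 10.62 in control 6 h arrays. Its changes of −0.40 (SE 0.13, adjusted p = 0.0608) in the controls and −0.29 (SE 0.13, adjusted p = 0.153) in the Aβ arrays did not pass, and the groups overlapped. CHAF1A gave 0.09 and −0.20 (SE 0.16), from a probe set that carries the cross-hybridization mark. Its 2 dimmer probe sets without the mark gave −0.15 and −0.48 in the controls and −0.36 and −0.98 in the Aβ arrays, the last with adjusted p = 0.0249 over all probe sets. SLBP, which binds the stem-loop of histone mRNA, gave −0.02 and −0.01 (SE 0.07).

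Probe sets of a gene did not always move together. For 24 of the 47 genes there were 35 further probe sets above the filter, and 22 of these had the sign of the one used in the controls and 25 in the Aβ arrays. Against control, 20 of 35 shared the sign with fibrils and 16 with oligomers.

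A wider list of 90 replication genes outside the 47, 86 of them above the filter, was counted in the same way. In the controls 14 of 86 were lower and 2 higher, with a median change of −0.12, where 7.92% of all genes were lower and 3.76% higher. In the Aβ arrays 15 were lower and 7 higher, with a median of −0.08, where 8.62% were lower and 6.54% higher. In both, 9 were lower and 2 higher, where 4.37% and 1.68% of all genes were. With fibrils or oligomers against control 0 passed, where an unadjusted p under 0.05 was met by 13 and 2 genes. Of all 11767 genes, 1668 and 327 met that p. E2F4 at 0.66 (SE 0.19, adjusted p = 0.124), E2F1 at −0.99 (SE 0.31, adjusted p = 0.153) and TOP2A at −0.39 (SE 0.12, adjusted p = 0.157) had the smallest p with fibrils. With oligomers these were RNASEH2C at −0.30 (SE 0.11), DBF4B at 0.72 (SE 0.31) and SKP2 at 0.20 (SE 0.10), each with adjusted p = 0.999987. In the difference of the responses they were ORC3 at −0.59 (SE 0.19), E2F4 at 0.72 (SE 0.27) and FBXO5 at 0.44 (SE 0.18), with adjusted p of 0.319 to 0.47.

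The 9 genes lower in both comparisons came from every group of the wider list. Its origin, fork and checkpoint group had 3 of 24 lower in the controls, where 7.92% of all genes were. In the Aβ arrays it had 2 of 24 lower and 1 higher, where 8.62% and 6.54% of all genes were. SSRP1 and SUPT16H, the subunits of the histone chaperone FACT, gave −0.65 and −0.35 in the controls and −0.79 and −0.41 in the Aβ arrays (SE 0.10 for SSRP1 and 0.06 for SUPT16H, largest adjusted p = 0.00223). TOP1, the topoisomerase that relieves torsion ahead of the fork, gave −0.51 and −0.49 (SE 0.07). CLSPN and TIMELESS, of the fork protection complex and its checkpoint link, gave −0.71 and −0.39 in the controls and −0.97 and −0.40 in the Aβ arrays (SE 0.19 and 0.12). CHTF8, of an alternative clamp loader, gave −0.42 and −0.77 (SE 0.10). DNMT1, the maintenance methyltransferase, gave −0.42 and −0.30 (SE 0.10), and SHMT2, a mitochondrial enzyme of one-carbon supply, −0.70 and −0.55 (SE 0.12). TFDP1, the dimerization partner of E2F factors, gave −0.23 and −0.28 (SE 0.07).

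Higher in both comparisons were SAMHD1, an enzyme that degrades dNTPs, at 0.51 (adjusted p = 0.00849) in the controls and 0.35 (adjusted p = 0.0453) in the Aβ arrays, and TFDP2, a second E2F partner, at 0.44 (0.0146) and 0.41 (0.0167). SAMHD1 read 7.23, 7.44 and 7.27 in fibrillar and 7.51, 7.48 and 7.53 in control 24 h arrays, against 6.85, 6.85 and 7.18 in oligomeric and 6.96, 7.06 and 6.98 in control 6 h arrays, without overlap of the hours. Lower in the controls alone by the test were CDCA5, RAD18, E2F7, CCNA2 and CDK2, with changes from −0.54 to −0.31. In the Aβ arrays alone NME1, ASF1B, RBBP4, E2F5, CDC25A and SKP2 were lower, from −0.80 to −0.24, and ORC4, RRM2B, CMPK1, RB1 and RBL2 were higher, from 0.25 to 0.70. The difference between the 2 comparisons, which is that between the fibrillar and oligomeric responses, passed for 0 of these genes. An unadjusted p under 0.05 was met there by 8 of the 86, and by 1004 of all 11767 genes.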

How the data were processed

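The authors deposited log2 signals. Per the submitters' processing notes they come from MAS5, with the version not given in the sources used here. The mean of the linear signal, trimmed by 2% at each end, was 100.03 on every array to 2 decimals, so arrays had been scaled to one target, and no further normalization was applied. Of 54675 probe sets 62 were controls, 41091 carried 1 gene symbol in the platform annotation, 1801 several and 11721 none, and 22107 with 1 symbol lay at or above the median level. The 12 arrays entered a single limma model (version 3.58.1, R 4.3.3, tables read by data.table version 1.17.8) with a mean for each group and a prior variance following the level. It was tested on simulated data, and 5 contrasts were taken from it. The genes and lists were chosen with earlier results of these data known. The genes named with changes were those called in a contrast, the 5 with the smallest p in each and 7 always named (MCM2, CDC6, CDT1, PCNA, TYMS, RRM2 and UHRF1), and the other genes by role. For the wider list they were the genes called and up to 3 per contrast, in part as ranges without errors. Alternatives covered normalization, centring, filter, pseudocount, probe sets, prior variance, array weights, groups fitted, the replicate block and each array left out. Figures were drawn with matplotlib 3.10.9.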

Additional observations from a re-analysis of the deposited data

How the results depend on the processing

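The counts of 0 genes with oligomers, of 0 lower genes with fibrils and of 0 in the difference of the responses held under every alternative run, and fitting the compared groups alone was not run for the difference. With fibrils 1 gene, CDT1, was higher after median centring, with array quality weights and with the replicate block. The shares of all genes called in either direction were then 1.41%, 2.28% and 1.56%. Without oligomeric replicate 2 or 3, which lie outside that comparison, 1 gene was higher, where 0.79% and 1.34% of all genes were called. In the controls of 24 h against 6 h the lower count of 10 became 20 after median centring (15% of all genes lower, against 7.92%). It became 6 with the mean of probe sets (6.04%), 6 with a constant prior variance (5.56%) and 4 to 14 with an array left out. The higher count of 1, GINS4, became 0 with the mean of probe sets. It was also 0 with the filter at the 75th percentile, where 44 of the 47 genes were tested and GINS4 was not. Median centring moved the median change of the 47 genes there to −0.34 and that of the difference to 0.16. It also moved the medians over all genes, to −0.15 and 0.15. In fibrillar 24 h against oligomeric 6 h arrays the lower count of 10 became 17 with the replicate block (9.46% of all genes, against 8.62%) and 5 to 14 with an array left out. The higher count of 1 became 0 with the mean of probe sets, a constant prior variance, array quality weights, the 2 groups alone and some arrays left out (0 to 1). Signs turned for GINS4 with oligomers (−0.033) and RFC5 in the controls (0.028), both with the mean of probe sets. Same-numbered arrays deviated with correlations of −0.03 to 0.09, and differently numbered ones with −0.12 to 0.09. Between the 24 h and 6 h controls the same-numbered values were 0.04 to 0.08 and the others −0.05 to −0.004. With fibrils against control they were 0.03 to 0.08 and −0.06 to 0.002. The labels do not say what the numbers mark, so the main fit did not read them as pairs. The block gave 14 lower genes in the controls, where 8.81% of all genes were lower. Calls over all genes with fibrils were 67.1% higher, and 86.1% after median centring. Depth is not known for arrays, and genes near the filter are the least precise. The causes of these changes were not tested.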
